A study of Mus musculus with 6 samples.

Results

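Of the 43432 genes in the deposited table, 10 genes of non-classical monocytes are described here: Cx3cr1, Ace, Treml4, Cd36, Spn, Eno3, Pou2f2, Fabp4, Adgre4 and Pparg. They were chosen by name, as genes known from mouse non-classical monocytes. No measured value entered the rule, but earlier results of these data were known when the genes were chosen. All 10 were found in the table, and all 10 passed the filter of a mean of at least 10 normalized counts over the 6 libraries. RNA had been sequenced in bulk from CD11b+ cells sorted out of spleens of Rag1 KO mice on the C57BL/6J background (which by themselves lack T and B lymphocytes) on day 8 after a transfer of cells. The WT iGB6 group (3 mice) received wild-type B cells grown in the iGB culture system and transduced with a pMSCV-IRES2-eGFP retrovirus that carried Il6. The IgHMOG iGBGFP group (3 mice) received IgHMOG B cells from the same culture with an empty pMSCV vector. The B cells of both groups had been loaded with MOG protein, and both groups also received unmanipulated 2D2 CD4+ T cells. B cell genotype and vector changed together, so their contributions cannot be told apart. Each group held 1 female mouse, always replicate 1, and 2 males.

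Non-classical monocytes are the blood monocytes with little Ly6C on their surface, and they patrol the inner wall of vessels. In mice they arise largely from classical, Ly6C-high monocytes, depend on the transcription factor NR4A1, and receive a survival signal through CX3CR1, the receptor of the membrane-bound chemokine fractalkine. The spleen holds a reservoir of both kinds of monocyte. None of the 10 genes is restricted to these cells: Cx3cr1 is also carried by some macrophages, dendritic cells and natural killer cells, Cd36 by macrophages, platelets and fat cells, Spn by T cells and neutrophils, and Fabp4 by fat and endothelial cells.

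The sort was checked on Itgam, which encodes CD11b. It had 10514, 9561 and 12352 normalized counts in WT iGB6 replicates 1, 2 and 3, against 10606, 6538 and 6451 in IgHMOG iGBGFP replicates 1, 2 and 3 (log2 fold change 0.49, limma adjusted p = 0.203). The T cell marker Cd3e had 0 reads in each WT iGB6 library and between 1 and 4 reads in the IgHMOG iGBGFP libraries. Other T cell genes differed in level. Cd3d had 60, 80 and 76 reads in WT iGB6 mice, against 129, 74 and 47 in IgHMOG iGBGFP mice. Lat had 13, 19 and 16 reads in WT iGB6 mice, against 57, 76 and 47 in IgHMOG iGBGFP mice. Trac had only 0, 0 and 1 reads in WT iGB6 mice, against 2, 5 and 16 in IgHMOG iGBGFP mice. Cd3g had 4, 1 and 4 reads in WT iGB6 mice, against 2, 9 and 8 in IgHMOG iGBGFP mice. Whether T cells were in the sort was not tested. Libraries held 5955142 to 7564254 reads in WT iGB6 mice and 5196339 to 6611212 reads in IgHMOG iGBGFP mice. In bulk RNA of this kind, fewer cells of a type and less RNA per cell cannot be told apart.

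Of the 10 genes, 4 were lower in WT iGB6 cells and none was higher by limma with Benjamini-Hochberg adjustment over all 9923 genes tested, nor by edgeR or DESeq2. The 4 were the chemokine receptor gene Cx3cr1, the peptidase gene Ace, the scavenger receptor gene Cd36 and the adhesion receptor gene Adgre4. Among all tested genes the same test called 3.37% lower and 2.75% higher. The log2 fold changes of all 10 lay below 0, as did those of 4804 of the 9923 genes tested. Those of Treml4 and Spn turned positive with library weights or without WT iGB6 replicate 3. Unadjusted p was under 0.05 for 6 of the 10, all with a lower WT iGB6 estimate. Among all 9923 genes tested it was under 0.05 for 2436, in either direction. The median log2 fold change of the 10 was -0.84, beside 0.02 over all genes tested. The 4 calls did not hold in every setting: without the sex term, and without IgHMOG iGBGFP replicate 2 or 3, limma called 0 of the 10. It called 10, 4 and 28 genes in all under those settings. With males only, or without either replicate 1 library, it called Ace and Cd36 alone of the 10, as sex and replicate number 1 coincide.

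**Figure D1:**
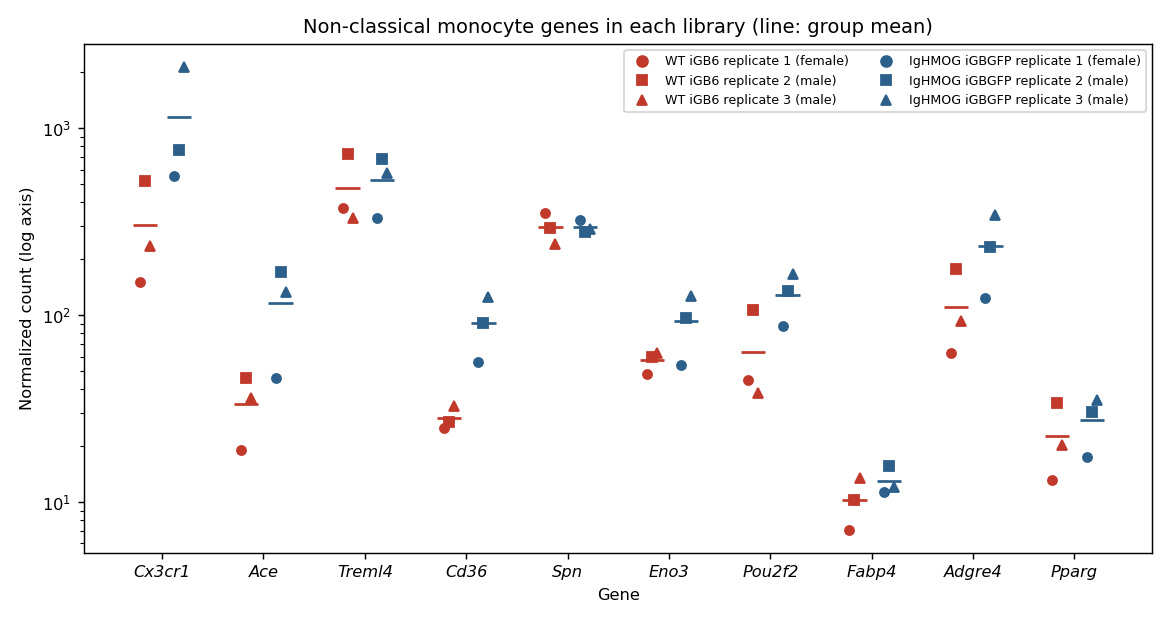
Normalized counts (log axis) of the 10 genes, side by side, in each library; red points are WT iGB6 mice and blue points to their right IgHMOG iGBGFP mice, with circles for replicate 1, squares for replicate 2, triangles for replicate 3 and a short line at each group mean. For Cx3cr1 the WT iGB6 points lie at 149 to 523, below the IgHMOG iGBGFP points at 552 to 2118, while for Spn they lie at 241 to 352 in WT iGB6 and 279 to 324 in IgHMOG iGBGFP.

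The promoters of the 4 lower genes are shown first, to see whether genes that moved together shared short sequence words at their starts. Each sequence is the RefSeq window of GRCm38.p6 from 250 bases before to 50 bases after the annotated start, 300 bases, 5′ to 3′ on the gene's own strand. Capitals mark matches to the words searched on both strands: AAAGGTCA (NR4A1), GAGGAAG (PU.1 core), TTGCNNAA (C/EBP), ATGCAAAT (octamer), CCACACCC (KLF), GTGGGAA (RBPJ) and the PPAR-RXR element known as DR1. Cx3cr1 has its window at chr9:120068247-120068546 (minus strand), Ace at chr11:105967698-105967997 (plus strand, the first of its 2 windows), Cd36 at chr5:17835847-17836146 (minus strand) and Adgre4 at chr17:55749734-55750033 (plus strand).
Cx3cr1: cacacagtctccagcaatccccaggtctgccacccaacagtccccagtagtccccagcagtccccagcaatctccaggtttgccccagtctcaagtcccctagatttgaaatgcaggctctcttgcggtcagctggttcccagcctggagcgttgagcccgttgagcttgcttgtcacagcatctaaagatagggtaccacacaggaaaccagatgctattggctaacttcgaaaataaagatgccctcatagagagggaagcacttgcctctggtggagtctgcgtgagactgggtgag
Ace: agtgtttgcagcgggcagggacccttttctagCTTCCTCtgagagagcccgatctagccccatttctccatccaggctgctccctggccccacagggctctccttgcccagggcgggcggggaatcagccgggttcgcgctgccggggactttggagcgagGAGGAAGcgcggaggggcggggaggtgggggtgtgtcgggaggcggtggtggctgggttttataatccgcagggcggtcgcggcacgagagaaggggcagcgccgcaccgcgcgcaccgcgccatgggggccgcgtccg
Cd36: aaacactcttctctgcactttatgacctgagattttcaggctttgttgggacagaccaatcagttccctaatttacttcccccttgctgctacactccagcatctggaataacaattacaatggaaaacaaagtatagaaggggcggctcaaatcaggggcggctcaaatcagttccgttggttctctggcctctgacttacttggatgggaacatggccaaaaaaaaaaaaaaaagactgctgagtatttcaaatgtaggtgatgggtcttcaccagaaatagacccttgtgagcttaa
Adgre4: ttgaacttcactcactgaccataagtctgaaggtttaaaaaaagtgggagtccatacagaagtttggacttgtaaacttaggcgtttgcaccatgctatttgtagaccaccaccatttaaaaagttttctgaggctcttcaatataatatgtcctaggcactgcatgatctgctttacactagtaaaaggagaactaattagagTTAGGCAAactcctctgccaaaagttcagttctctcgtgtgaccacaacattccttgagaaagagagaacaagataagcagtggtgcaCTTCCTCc

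No searched word stood in all 4 windows, while the PU.1 core was in those of Ace and Adgre4. The Ace window held the PU.1 core in each orientation, with first bases 89 and 218 bases before the start. The Adgre4 window held a C/EBP word on the opposite strand 46 bases before the start and a PU.1 core whose first base is base 43 of the transcript. Among 32851 RefSeq windows of the same length, 13.6% hold the PU.1 word, 10.8% the C/EBP word and 6.38% the RBPJ word. The NR4A1 word stood in 1.51% of all windows, the octamer in 1.74%, the KLF word in 3.56% and the DR1 in 0.0396%, and none of these was in any of the 12 windows found for 9 of the genes. One of 3 Pparg windows had C/EBP words 215 and 16 bases and an RBPJ word 114 bases before the start; Treml4, Spn, Eno3, Pou2f2, the remaining Pparg windows and the second Ace window had no match. GC content was 69.7% with 29 CpG in the Ace window, against 54.3% in Cx3cr1, 43.0% in Cd36 and 40.3% in Adgre4, beside medians of 52.7% and 7 CpG over all windows.

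Among the surface receptors, Cx3cr1 showed the greatest difference of the 10 on the log2 scale in limma on all 6 libraries, but not with males only or without either replicate 1 library (Ace), nor without IgHMOG iGBGFP replicate 3 (Ace) or WT iGB6 replicate 3 (Cd36). Cx3cr1 (ENSMUSG00000052336, GRCm38 chr9:119901616-120069879, minus strand), the fractalkine receptor, had 149, 523 and 235 normalized counts in WT iGB6 replicates 1, 2 and 3, against 552, 768 and 2118 in IgHMOG iGBGFP replicates 1, 2 and 3. The groups did not overlap, although the highest WT iGB6 mouse came close to the lowest IgHMOG iGBGFP mouse, and IgHMOG iGBGFP replicate 3 stood far above the rest. The means were 303 ± 196 in WT iGB6 and 1146 ± 849 in IgHMOG iGBGFP (SD, n = 3 each). The log2 fold change was -1.87 (SE 0.37, 95% interval -2.69 to -1.04, limma adjusted p = 0.0244). It was near equal in the 2 sexes, at -1.88 between the females and -1.86 between the males.

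Adgre4 (ENSMUSG00000032915, chr17:55749984-55853662, plus strand) encodes an adhesion G protein-coupled receptor of the EMR family that is found on mouse macrophages and monocytes. It had 62.8, 177 and 93.4 normalized counts in WT iGB6 mice, against 124, 232 and 345 in IgHMOG iGBGFP mice. The groups overlapped, as WT iGB6 replicate 2 lay above IgHMOG iGBGFP replicate 1. The log2 fold change was -1.08 (SE 0.27, 95% interval -1.68 to -0.47), and this call was the nearest to the threshold (limma adjusted p = 0.0456, and 0.0506 among genes with a mean of at least 50).

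Cd36 (ENSMUSG00000002944, chr5:17781690-17888801, minus strand) encodes a scavenger receptor that takes up oxidized lipoprotein and fatty acids. It had 24.9, 26.8 and 32.6 normalized counts in WT iGB6 mice, against 56.3, 90.6 and 125 in IgHMOG iGBGFP mice. The WT iGB6 libraries were close together and all below the other group, whose libraries spread more widely. The log2 fold change was -1.59 (SE 0.28, 95% interval -2.22 to -0.96, limma adjusted p = 0.0173).

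Ace (ENSMUSG00000020681, chr11:105967945-105989964, plus strand) encodes angiotensin-converting enzyme, a membrane-bound peptidase. It had 19.0, 45.8 and 36.0 normalized counts in WT iGB6 mice, against 46.0, 169.9 and 133 in IgHMOG iGBGFP mice. The groups did not overlap, but only by the narrow step between WT iGB6 replicate 2 and the IgHMOG iGBGFP female. The log2 fold change was -1.65 (SE 0.27, 95% interval -2.25 to -1.06, limma adjusted p = 0.0127). The antisense gene Gm11651 shares 295 exon bases, 5.58% of the exon bases of Ace, and had 0 reads in every library.

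The other surface genes did not pass the test. Treml4 (ENSMUSG00000051682, chr17:48264295-48275360), a receptor of the TREM family that binds dying cells, had 375, 729 and 328 normalized counts in WT iGB6 mice, against 328, 682 and 578 in IgHMOG iGBGFP mice. The ranges nearly coincided, and the log2 fold change was -0.18 (95% interval -0.79 to 0.44, limma adjusted p = 0.741). Spn (ENSMUSG00000051457, chr7:127132232-127137823), which encodes the sialylated surface protein CD43, had 352, 290.5 and 241 normalized counts in WT iGB6 mice, against 324, 279 and 287 in IgHMOG iGBGFP mice. The IgHMOG iGBGFP values lay inside the WT iGB6 range, with a log2 fold change of -0.02 (95% interval -0.42 to 0.37, limma adjusted p = 0.949). Of the set, Spn was thus the gene with the narrowest interval, and a change as large as that estimated for Cx3cr1, Ace, Cd36 or Adgre4 lay outside it.

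Both transcription factor genes missed the threshold with limma, edgeR and DESeq2, Pou2f2 by little with DESeq2. Pou2f2 (ENSMUSG00000008496, chr7:25087344-25179726) encodes OCT2, a POU factor best known from B cells. It had 45.1, 107 and 38.2 normalized counts in WT iGB6 mice, against 86.9, 134 and 165 in IgHMOG iGBGFP mice. The groups overlapped through WT iGB6 replicate 2, and the log2 fold change was -1.11 (SE 0.35). The adjusted p of Pou2f2 was 0.0816 with limma, 0.103 with edgeR and 0.0504 with DESeq2. Pparg (ENSMUSG00000000440, chr6:115360951-115490399) encodes the lipid-sensing nuclear receptor PPAR gamma. It had 13.04, 33.9 and 20.2 normalized counts in WT iGB6 mice, against 17.4, 30.2 and 35.0 in IgHMOG iGBGFP mice. These ranges overlapped for most of their length, with a log2 fold change of -0.33 (95% interval -1.08 to 0.42, limma adjusted p = 0.592).

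The remaining pair are a metabolic enzyme and a lipid carrier. Eno3 (ENSMUSG00000060600, chr11:70657202-70662513), the muscle form of the glycolytic enzyme enolase, had 48.6, 60.0 and 63.0 normalized counts in WT iGB6 mice, against 54.2, 96.6 and 127 in IgHMOG iGBGFP mice. Only the IgHMOG iGBGFP female fell inside the WT iGB6 range, and the log2 fold change of -0.61 (SE 0.26) had a limma adjusted p of 0.175. Fabp4 (ENSMUSG00000062515, chr3:10204088-10208576), an intracellular fatty acid carrier and a known PPAR gamma target, was covered by 6, 13 and 12 reads in WT iGB6 mice and by 11, 18 and 12 reads in IgHMOG iGBGFP mice. At that depth the interval of its log2 fold change was wide, from -1.24 to 0.58 around -0.33, and a change like that of Adgre4 lay inside it.

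**Figure D2:**
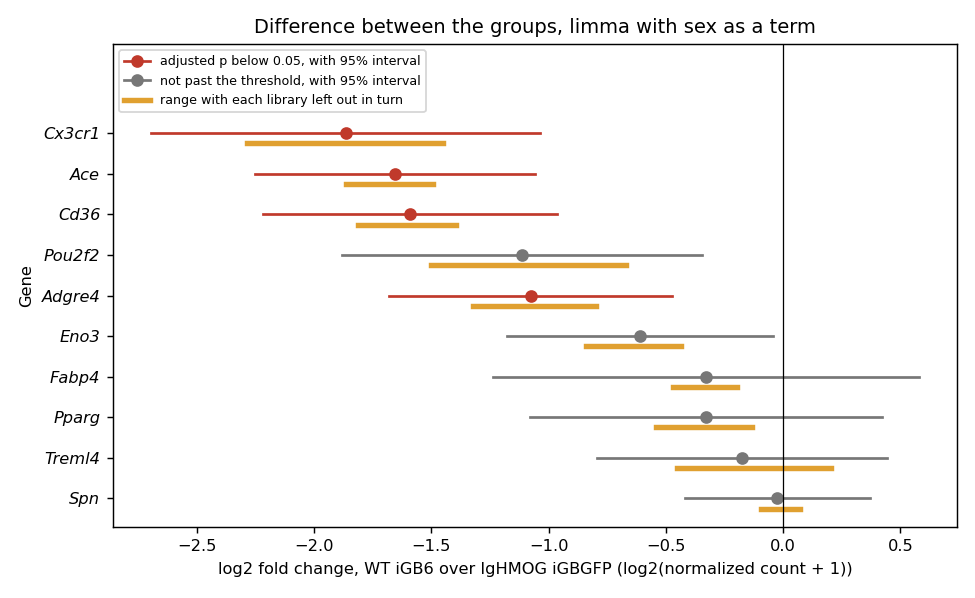
Log2 fold changes of WT iGB6 over IgHMOG iGBGFP (x axis) for the 10 genes, with limma's 95% interval as a thin line, red where the adjusted p is under 0.05 and grey elsewhere; the orange bar gives the range of the estimate with each library left out in turn. Estimates run from -1.87 for Cx3cr1 to -0.02 for Spn, the intervals of Treml4, Spn, Fabp4 and Pparg include 0, and the orange bars of Treml4 and Spn cross 0.

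By groups that do not overlap, 3 of the 10 (Cx3cr1, Ace and Cd36) had every WT iGB6 library below every IgHMOG iGBGFP library, beside 11.4% of all tested genes. The same 4 genes passed with edgeR (adjusted p 0.0237 for Cx3cr1, 0.0127 for Ace, 0.0164 for Cd36 and 0.0474 for Adgre4) and with DESeq2 (6.17e-06, 4.46e-05, 3.10e-04 and 0.00961 in the same order of genes). The authors' deposited table, which was made from the same libraries, gave adjusted p under 0.05 to these 4 of the 10 as well and to 862 of 10537 genes. In the authors' deposited table the log2 fold changes were -1.31 for Cx3cr1, -1.48 for Ace, -1.39 for Cd36 and -0.93 for Adgre4, so Ace had the greatest size there. DESeq2 on the recovered reads gave larger sizes, -1.93, -1.74, -1.67 and -1.07 in the same order of genes. Why the deposited estimates were smaller was not tested. A term for the interaction of sex and group passed for 0 genes with limma (smallest adjusted p = 0.9996), while 148 genes and 0 of the 10 had an unadjusted p under 0.05; edgeR and DESeq2 were not run for it.

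Mice differed within the groups, and most of the 10 genes followed the same mice. WT iGB6 replicate 1 was the lowest of all 6 libraries for 7 of the 10, and IgHMOG iGBGFP replicate 3 the highest for 6. Within the IgHMOG iGBGFP group the female, replicate 1, was the lowest for 9 of the 10. Within the WT iGB6 group replicate 2 was the highest for 6. The summed normalized counts of the 10 were 1097, 2003 and 1101 in WT iGB6 replicates 1, 2 and 3, against 1601, 2497 and 3925 in IgHMOG iGBGFP replicates 1, 2 and 3, so that WT iGB6 replicate 2 lay above the IgHMOG iGBGFP female. These sums are weighted towards Cx3cr1 and Treml4, the genes with the most reads.

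**Figure D3:**
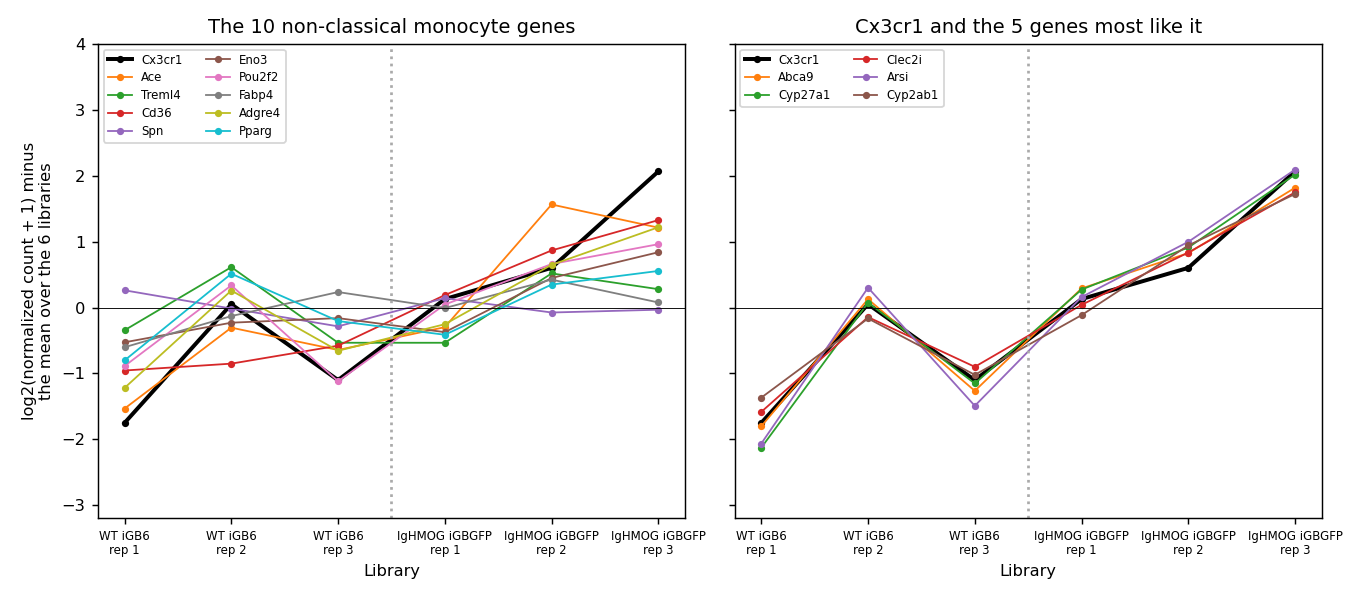
Centred log2 values (log2 of the normalized count + 1, minus the gene's mean over the 6 libraries) by library, WT iGB6 left of the dotted line and IgHMOG iGBGFP right of it, for the 10 genes (left panel) and for Cx3cr1 with the 5 genes most like it (right panel); lines only join the points of a gene. Cx3cr1 runs from -1.75 in WT iGB6 replicate 1 to 2.07 in IgHMOG iGBGFP replicate 3, Spn stays near 0, and the 5 similar genes follow Cx3cr1 closely.

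Per kilobase of exon, counting all annotated exons of a gene, Treml4 was the most abundant of the 10 and Fabp4 the least in both groups. The annotated exons of Fabp4 cover 4489 bases, the whole span of the gene. A shorter spliced transcript would give it a higher value per kb, so its last place rests on that length. In WT iGB6 cells the order was Treml4 (239 ± 110 normalized counts per kb), Cx3cr1 (67.2 ± 43.5), Spn (62.9 ± 11.9), Eno3 (32.9 ± 4.36), Adgre4 (31.8 ± 16.9), Cd36 (7.83 ± 1.12), Pou2f2 (7.68 ± 4.57), Pparg (7.59 ± 3.60), Ace (6.35 ± 2.57) and Fabp4 (2.29 ± 0.711), each as mean ± SD of 3 mice. In IgHMOG iGBGFP cells it was Treml4 (265 ± 91.0), Cx3cr1 (254 ± 188), Adgre4 (66.9 ± 31.7), Spn (63.4 ± 5.20), Eno3 (53.2 ± 21.01), Cd36 (25.2 ± 9.57), Ace (21.996 ± 12.03), Pou2f2 (15.6 ± 4.76), Pparg (9.32 ± 3.08) and Fabp4 (2.88 ± 0.508). The means of Treml4 and Cx3cr1 were thus alike in IgHMOG iGBGFP cells, but single mice differed. Treml4 had 164, 342 and 289 per kb in IgHMOG iGBGFP replicates 1, 2 and 3, against 123, 170 and 470 for Cx3cr1. In WT iGB6 cells the Treml4 range lay wholly above that of Cx3cr1. Neighbours in the order whose ranges did not overlap were Treml4 and Cx3cr1, Spn and Eno3, Adgre4 and Cd36, and Ace and Fabp4 in WT iGB6 cells. In IgHMOG iGBGFP cells they were Cx3cr1 and Adgre4, and Pparg and Fabp4. All other neighbours overlapped. The gaps next to Fabp4 rest on its exon length as well.

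Set against general monocyte genes of the same library, Cx3cr1 was still lower. The ratio of Cx3cr1 to Ccr2, the chemokine receptor of classical monocytes, was 0.118, 0.136 and 0.0956 in WT iGB6 replicates 1, 2 and 3, against 0.334, 0.234 and 0.327 in IgHMOG iGBGFP replicates 1, 2 and 3. The mean ratio was 0.116 ± 0.0200 in WT iGB6 and 0.298 ± 0.0559 in IgHMOG iGBGFP (SD, n = 3 each), and the spread among mice was narrower than for Cx3cr1 itself. The log2 difference of -1.35 had p = 0.1 by an exact two-sided permutation test, and 3 mice against 3 cannot give a smaller one. Ccr2 itself had a log2 fold change of -0.52 (limma adjusted p = 0.267). The ratios of 3 of the 10, Cx3cr1, Ace and Adgre4, lay wholly below those of the IgHMOG iGBGFP mice, beside 1.64% of all tested genes.

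With Csf1r, the receptor of the growth factor on which monocytes and macrophages depend, as denominator, chosen after the data were seen, the set divided. Cx3cr1 to Csf1r was 0.0928, 0.120 and 0.167 in WT iGB6 mice, against 0.204, 0.172 and 0.384 in IgHMOG iGBGFP mice, a mean at 49.98% of that of IgHMOG iGBGFP (log2 difference -0.95, p = 0.1 by the same exact permutation test). Pou2f2 was the other gene whose ratios lay wholly below, at 86.6% of the IgHMOG iGBGFP mean, and 1.33% of all tested genes did so. The ratios of Treml4 (167% of the IgHMOG iGBGFP mean) and Pparg (155%) lay wholly above, as did those of 8.30% of all tested genes. Csf1r had a log2 fold change of -0.92 (limma adjusted p = 0.133).

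**Figure D4:**
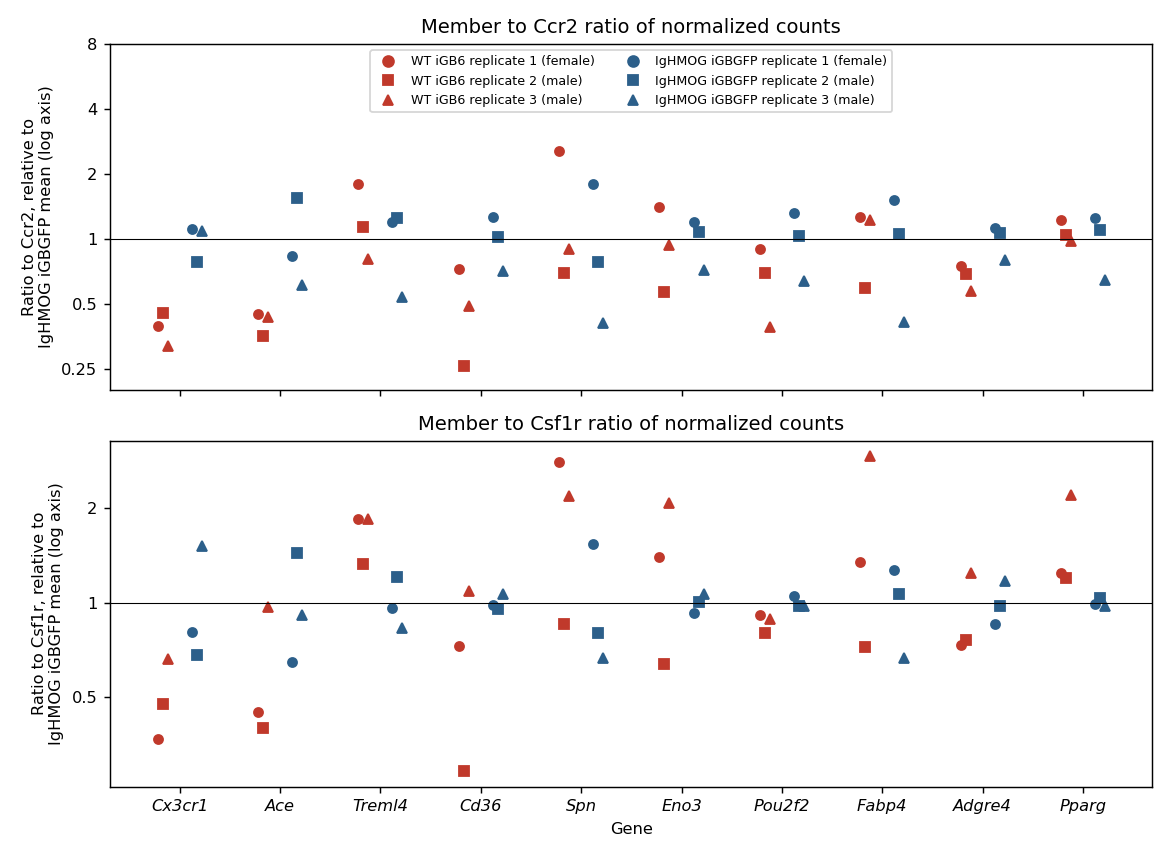
Ratio of each of the 10 genes to Ccr2 (upper panel) and to Csf1r (lower panel) in each library, divided by the mean ratio of the IgHMOG iGBGFP mice, on a log axis; red points are WT iGB6 mice, blue points to their right IgHMOG iGBGFP mice, and shapes are replicates. Cx3cr1 lies lower in WT iGB6 in both panels, with mean ratios at 39.0% and 49.98% of IgHMOG iGBGFP, whereas Treml4 and Pparg lie higher in the lower panel.

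The genes with the profile most like that of Cx3cr1 across the 6 libraries were found by the root mean square difference of centred log2 values among 9282 genes. They were Abca9, a lipid transporter of the ABC family (difference 0.170), Cyp27a1, the mitochondrial sterol 27-hydroxylase (0.209), Clec2i, a C-type lectin-related gene (0.212), Arsi, a sulfatase (0.280), and Cyp2ab1, a cytochrome P450 gene (0.287). Abca9, for instance, had 23.7, 93.1 and 34.9 normalized counts in WT iGB6 mice, against 104, 152 and 303 in IgHMOG iGBGFP mice. Cyp27a1 had 19.0, 90.8 and 38.2 normalized counts in WT iGB6 mice, against 104, 163 and 352 in IgHMOG iGBGFP mice. In both, the 6 mice stood in the same order as for Cx3cr1. Of the other 9 genes, Adgre4 was the nearest to Cx3cr1, at rank 67 (difference 0.481), followed by Pou2f2 at 149, Ace at 171 and Cd36 at 199. Eno3 stood at rank 669, Pparg at 758, Treml4 at 1608, Fabp4 at 2226 and Spn at 4693. The 10 genes therefore did not share 1 profile over these mice.

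Other genes of non-classical monocytes were mixed, by a list chosen with earlier results of these data known. Of 14 listed, 12 were tested, 3 were lower and 1 higher in WT iGB6 cells (median log2 fold change -0.31). Klf2, a zinc finger factor of quiescence, had a log2 fold change of -1.51, Itgax, which encodes CD11c, of -1.46 and Nr4a1, the factor on which the cells depend, of -1.30 (limma adjusted p = 0.0303, 0.0337 and 0.0487). Nr4a1 had 289, 469.7 and 187 normalized counts in WT iGB6 mice, against 439.9, 817 and 1056 in IgHMOG iGBGFP mice, so the groups overlapped, and its adjusted p was 0.0506 with edgeR and 0.00363 with DESeq2. Ceacam1, an adhesion molecule that neutrophils also carry, rose, with a log2 fold change of 1.03. Pglyrp1, the most abundant of the list, had 0.47 and did not pass.

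Classical and shared monocyte genes contained further lower members and, by limma, no higher one. Of 15 classical genes tested, 3 fell: Fn1, which encodes fibronectin (-2.55), Ms4a4c (-0.85) and Ms4a6c (-0.84), with a list median of -0.43. Chil3 and Hp, which neutrophil lineage cells also express and which were the most abundant of the list, had log2 fold changes of 1.26 (limma adjusted p = 0.054) and 0.22. Of 11 shared genes, Irf8 (-1.17) and Klf4 (-1.73), transcription factors of the monocyte lineage, fell, with a median of -0.43; Lyz2, the lysozyme gene, had 0.42, or -0.19 after quantile normalization. On the higher side, 2 classical and 0 shared genes had an unadjusted p under 0.05, and edgeR and DESeq2 each called 1 classical gene higher, Chil3.

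Around Cd36, Pparg and Fabp4, the list of PPAR and lipid handling genes had 4 lower and 1 higher of 15 tested (median -0.68). Lpl, lipoprotein lipase, had 36.8, 111 and 57.4 normalized counts in WT iGB6 mice, against 184, 292 and 288 in IgHMOG iGBGFP mice, and fell by 2.00 on the log2 scale (limma adjusted p = 0.00716). The cholesterol exporter Abcg1 (-1.004), the scavenger receptor Msr1 (-1.03) and the fatty acid carrier Fabp5 (-1.21) fell too, while the oxidized lipoprotein receptor Olr1 rose (1.41). Plin2 and Acaa2, the most abundant of the list, had 0.03 and 0.10 and did not pass.

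Along the pathway of Cx3cr1, the ligand gene Cx3cl1 had 0 reads in 5 libraries and 1 read in WT iGB6 replicate 2; it is made mainly by cells outside the sort. Of 10 tested fractalkine and survival genes, 3 fell and none rose by limma, edgeR or DESeq2 (median -0.40; 1 gene was higher at an unadjusted p under 0.05). These were the survival genes Mcl1 (-1.19) and Bcl2a1d (-1.89, at 3 to 34 reads, with near-identical Bcl2a1 copies that could share them) and the growth factor gene Csf1 (-2.19, which did not pass with edgeR, at an adjusted p of 0.051, or with DESeq2, at 0.124). Ctss and Gnai2, the most abundant of the list, had log2 fold changes of -0.83 and -0.52 and did not pass with limma or edgeR, while Ctss passed with DESeq2 (adjusted p = 0.00998).

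**Figure D5:**
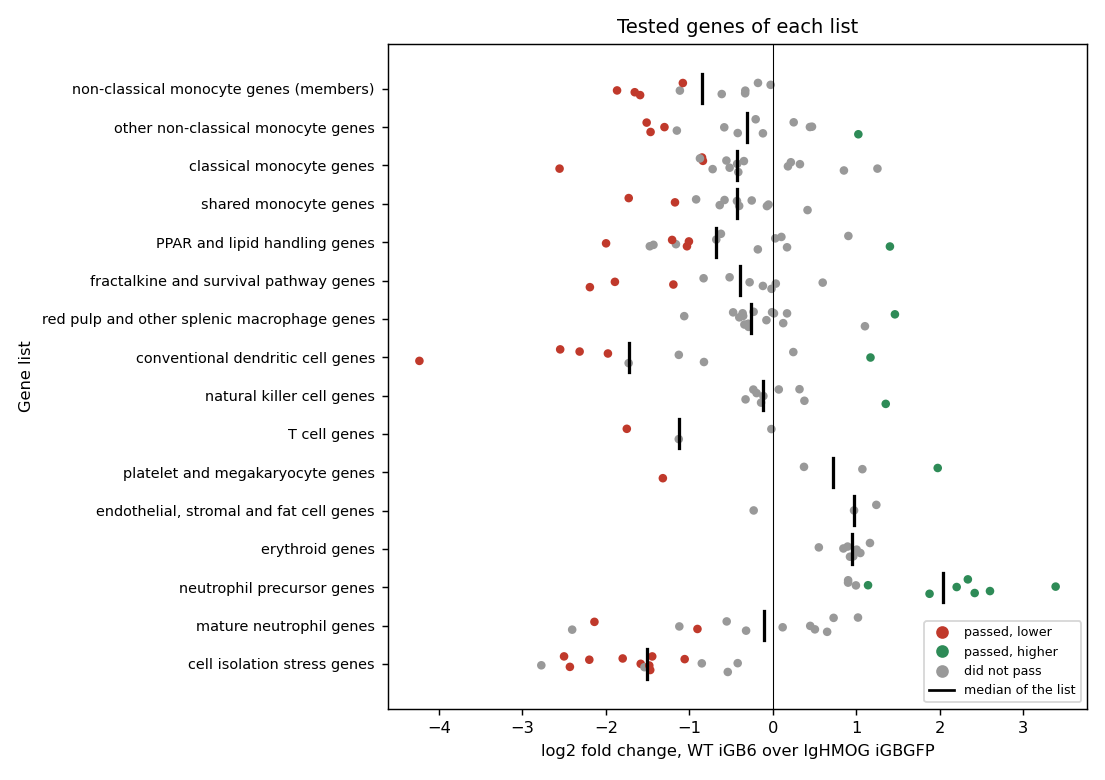
Log2 fold changes of WT iGB6 over IgHMOG iGBGFP (x axis) for the tested genes of each list, 1 point per gene, red where lower and green where higher at an adjusted p under 0.05, grey where not; the black bar is the list median and the top row holds the 10 genes. The medians are -0.84 for the 10 genes, 2.04 for the neutrophil precursor list and -1.51 for the cell isolation stress list.

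Among markers of dendritic cells, macrophages and natural killer cells, which can carry some of the 10, only dendritic cell genes were called lower. Of 9 conventional dendritic cell genes tested (13 listed), 4 fell, with Cd209a at -4.24, Irf4 at -2.55, Dpp4 at -2.31 and Flt3 at -1.98, and Ffar2 rose (1.17); the list median was -1.73 and its summed counts ran from 2505 to 3133 in WT iGB6 and from 2822 to 3598 in IgHMOG iGBGFP. Those sums were mostly Cd24a, at 1750.02 to 2169.8 normalized counts in WT iGB6 and 1089.6 to 2585 in IgHMOG iGBGFP, and Ffar2, neither of which fell, while Cd209a averaged 33.1 in WT iGB6 and 511 in IgHMOG iGBGFP. Among 16 macrophage genes, of the red pulp and the rest of the spleen, none fell and Cd5l rose (1.47), with sums of 6025 to 13509 in WT iGB6 and 9095 to 11309 in IgHMOG iGBGFP. Of 9 natural killer genes tested (11 listed), only Nkg7 was called, higher in WT iGB6 (1.36), with sums of 643 to 2585 in WT iGB6 and 567 to 1369 in IgHMOG iGBGFP. Nkg7 had 450, 527 and 562 reads in WT iGB6 mice, against 178, 209 and 253 in IgHMOG iGBGFP mice. Gzma, of the same list, did not follow it, with 116, 90 and 695 reads in WT iGB6 mice, against 168, 194 and 434 in IgHMOG iGBGFP mice. No macrophage or natural killer gene was lower by edgeR, DESeq2 or an unadjusted p under 0.05. The part of these cells in the levels of Cx3cr1, Cd36 and Treml4 was not tested. Of 12 endothelial, stromal and fat cell genes, cells that can carry Fabp4, 3 were tested, with sums over the 12 of 136 to 258 normalized counts in WT iGB6 and 94.0 to 178 in IgHMOG iGBGFP. Lyve1, a gene of lymphatic and sinusoidal endothelium and some macrophages, had 128, 62 and 142 reads in WT iGB6 mice, against 101, 31 and 31 in IgHMOG iGBGFP mice (limma adjusted p = 0.0987, DESeq2 adjusted p = 0.0190). Stab2, of sinusoidal endothelium, had 42, 74 and 16 reads in WT iGB6 mice, against 29, 78 and 43 in IgHMOG iGBGFP mice, whereas Cdh5, Adipoq and Plin1 had at most 2 reads in any library. The part of these cells in the level of Fabp4 was not tested.

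Neutrophil precursor genes rose and genes induced by cell isolation fell beside the 4 calls. Of 10 neutrophil precursor genes tested (11 listed), 7 rose, none fell, and the list held 14.6 to 20.7% of normalized counts in WT iGB6 and 7.81 to 17.2% in IgHMOG iGBGFP. Of 14 isolation stress genes tested (15 listed), 9 fell and none rose, with sums of 15075 to 28236 in WT iGB6 and 35871 to 57507 in IgHMOG iGBGFP. No precursor gene was lower and no stress gene higher by edgeR, DESeq2 or an unadjusted p under 0.05. Klf2, Klf4 and Nr4a1 are also known to respond to cell handling. The part of either in the lower levels of the 10 genes was not tested.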

How the data were processed

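Bulk RNA-seq libraries of 6 mice, 3 per group, were grouped by the sample labels. Per the submitters' processing notes, the builds were GRCm38 and mm10, and the tools included STAR 2.7.10b, featureCounts 2.0.3 and DESeq2 2.11.40.7; the sources used here do not give the strand setting or the handling of multiply mapped reads. In the deposited signal table of normalized counts the authors divided whole read counts by 1 factor per library, and 100% of values came back as whole reads within 0.001. Neither strand nor molecular identifiers are said to be kept, so antisense reads cannot be told apart and counting error covers counting only; 3 reads equal 2.37 to 3.56 normalized counts. The authors also deposited a comparison without a header, which they named a DESeq2 result: per gene it gives log2 fold change, Wald score, p-value and adjusted p, columns identified here from the values.

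Genes were named from GENCODE M21 (42548 of 43432 matched). The test was limma 3.58.1 in R 4.3.3 (variance trend) on log2(normalized count + 1), for 9923 genes with a mean of at least 10, on group plus sex. Tests were two-sided and adjusted by Benjamini-Hochberg (threshold 0.05). The pseudocount shrinks the fold changes of low genes. On recovered reads edgeR 4.0.16 called 606 genes and DESeq2 1.42.0 called 951, beside 607. The fits were tested on simulated counts with the same dispersion for every gene and no sex effect. That test therefore does not show how the fits behave at the spread between these mice. The members and the 15 further lists (188 genes, 150 tested) were chosen with earlier results of these data known. From each list, up to 4 called genes with the smallest p and the 2 with the highest mean were named. Fabp5, Cx3cl1, Cd3e, Cd3g, Trac, Adipoq, Plin1, Cdh5, Cd177, Gp9, Pf4 and Treml1 were named after their values were seen. Promoters were RefSeq windows, matched by symbol for 9 of the 10 genes.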

Additional observations from a re-analysis of the deposited data

How the results depend on the processing

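The number of the 10 genes called lower was 4, and 2 with males only, 0 without the sex term, 3 to 5 with other filters (Pou2f2 added with no filter on low values, Adgre4 lost at a mean of at least 50), 4 under the other settings on all libraries, and 0 to 5 when each library was left out. Over the 17 alternatives Ace and Cd36 were called in 14 each, Cx3cr1 in 11, Adgre4 in 9 and Pou2f2 in 2. All genes called numbered 607, against 1079 with no filter, 10 without the sex term, 133 with males only, 1443 with library weights, 951 with DESeq2 and 4 to 1090 when each library was left out. The cause was not tested; males only and left-out libraries leave fewer samples. The count of the 10 called higher and of interactions called stayed at 0 in every setting run.

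With the replicate number as a block in place of sex, 1001 genes were called, including all 607, and the same 4 of the 10. Deviations of same-numbered libraries correlated at 0.48, 0.35 and 0.04 for numbers 1, 2 and 3. WT iGB6 replicates 1 and 2 correlated best with the same number, and replicate 3 with IgHMOG iGBGFP replicate 1. With 3 libraries per group, these values cannot decide whether the numbers pair the mice.

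Log2 fold changes that turned sign were all of genes that did not pass. With library weights Treml4 was 0.11, Spn 0.0565, Plin2 -0.0777, Stab2 0.26 and Vcam1 0.37. With edgeR and DESeq2 Gzma was 0.21 and 0.21 and Vcam1 0.14 and 0.14. With quantile normalization Cd3d was 0.0289, Lyz2 -0.19 and S100a9 -0.25, and with males only Cd3d was 0.42. With each library left out, Treml4 ran from -0.45 to 0.20, Spn from -0.0960 to 0.0732, Cd24a from -0.00572 to 0.50, Cd3d from -0.26 to 0.42, Gzma from -1.23 to 0.74, Hp from -0.00144 to 0.38, Plin2 from -0.0868 to 0.17, Stab2 from -0.71 to 0.38 and Vcam1 from -0.66 to 0.55. For the 61 other named genes, 783 of 1028 alternative values kept direction and side of the threshold, 198 lost the call, 25 gained it and 22 changed sign. The log2 difference of Cx3cr1 to Ccr2 ran from -1.52 to -1.21 with a library left out and was -1.28 with males only.

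Precision is limited by 3 mice per group, of which 1 is female, and for Fabp4 by 6 to 18 reads per library.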

Other observations

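Among markers of cells that should be rare in this sort, a few single genes passed. Ppbp, a platelet chemokine, had 53.4, 38.7 and 70.9 normalized counts in WT iGB6 mice, against 9.21, 21.6 and 9.996 in IgHMOG iGBGFP mice (log2 fold change 1.98, limma adjusted p = 0.0248). Itga2b, the platelet integrin gene, went the other way, with 37.9, 41.8 and 30.4 normalized counts in WT iGB6 mice, against 72.6, 147 and 73.0 in IgHMOG iGBGFP mice (log2 fold change -1.32, limma adjusted p = 0.0414). Gp9, Pf4 and Treml1, also of the platelet list, lay wholly higher in WT iGB6. Gp9 did not pass (limma adjusted p = 0.126), and Pf4 and Treml1 were below the filter. The groups overlapped for the rest of that list. Lat, an adaptor of T cells, platelets and mast cells, had 15.4, 15.0 and 18.0 normalized counts in WT iGB6 mice, against 58.3, 65.5 and 47.0 in IgHMOG iGBGFP mice (log2 fold change -1.75, limma adjusted p = 0.0167). For Ppbp, Itga2b and Lat the groups did not overlap, but these genes were named for their small p, which favours such separation. Values were wholly lower in WT iGB6 for 11.4% of all tested genes, and the share wholly higher is not given here.

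Of the remaining lists, T cell genes had 1 lower of 3 tested (9 listed, median log2 fold change -1.13), with summed counts of 96.3 to 134 in WT iGB6 and 179.9 to 229 in IgHMOG iGBGFP. Platelet genes had 1 lower and 1 higher of 4 tested (10 listed, median 0.73). Mature neutrophil genes had 2 lower of 12, the lectin gene Clec4d (-2.14) and the chemokine receptor gene Cxcr2 (-0.90), with a median of -0.10. Clec4d did not pass with DESeq2 (adjusted p = 0.105), and on the higher side limma and edgeR called 0 genes and DESeq2 called 1, Cd177 (log2 fold change 1.02, DESeq2 adjusted p = 0.00156), with 2 at an unadjusted p under 0.05. Of 8 erythroid genes tested, limma, edgeR and DESeq2 called 0, although 6 were higher in WT iGB6 at an unadjusted p under 0.05 (median 0.95). Of 3 endothelial, stromal and fat cell genes tested (12 listed, median 0.98), limma and edgeR called 0 and DESeq2 1. At an unadjusted p under 0.05, 2 of them were higher in WT iGB6. Among all genes tested, 2436 of 9923 had an unadjusted p under 0.05 in either direction.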
